A study of Mus musculus with 18 samples.

Results

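Hearts of mouse embryos at E14.5 (E for embryonic day) were compared with hearts at E12.5 across every gene measured by RNA sequencing. The samples were taken by their labelled age, which gave 3 libraries at E14.5 and 4 at E12.5, 7 of the 18 libraries of the series. Both groups were labelled wild type, of the strain C57BL/6, and each library came from hearts of male and female embryos together, from which total RNA was extracted. No treatment, transgene or deletion was labelled, so the labels separate the groups by age alone. The series covers 5 stages from E9.5 to E16.5, and by its title it is about the growth of the heart and the role in it of mevalonate metabolism and muscle cell division. Whether replicate libraries come from different litters is not labelled; the p-values rest on how far the libraries differ, and that difference may be technical.

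Between these days the heart closes the wall between its ventricles, its cushions are shaped into valves, and a plexus of coronary vessels spreads through the thickening wall. The red cells in its chambers change over the same period, from large primitive cells of the yolk sac, which carry embryonic globins, to definitive cells from the fetal liver, which carry adult globins. Heart muscle cells still divide at this age while they build up their contractile, calcium-storing and fuel-burning machinery.

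The 7 libraries held 30744015 to 45646538 counts each. Levels are given as CPM, counts scaled to a common library total, and where a gene has 0 counts its level may be as high as 0.0657 to 0.0976 CPM (3 counts), for counting error only. Values below are in replicate order, levels are CPM after TMM scaling unless said otherwise, and an adjusted p is from edgeR's quasi-likelihood test with Benjamini-Hochberg adjustment over all genes tested. Summed levels of lists are CPM of plain library totals. A change written as a value ± SE is a log2 fold change, E14.5 over E12.5, and all coordinates are GRCm38 with GENCODE M21 gene models. The 6 heart muscle markers Tnnt2, Actc1, Myh6, Myh7, Ryr2 and Nkx2-5 were present in all 7 libraries, from 151 CPM for Ryr2 to 8892 CPM for Actc1. E12.5 replicate 4 stood apart from the other E12.5 libraries: 8 transcripts of activated macrophages summed to 418, 676, 346 and 2.75 CPM at E12.5 and 605, 689 and 441 CPM at E14.5, and its globin share was the smallest of its stage. The spread between replicates was taken from all 18 libraries, and calls that change when it is taken from the E12.5 and E14.5 libraries alone, or when a library is left out, are given beside many of the results. Transcripts of the pituitary, singled out after their values were seen, were present at E14.5. Growth hormone (Gh) stood at 0.439, 0.605, 0.679 and 0 CPM of plain totals at E12.5 and at 106, 218 and 169 CPM at E14.5. Of the other libraries it was present in replicates 3 and 4 of E10.5 (197 and 394 CPM) and replicate 1 of E16.5 (322 CPM), and at most 0.679 CPM in the other 12 libraries of the series. The hormone genes Prl, Cga and Lhb reached 1.31, 0.545 and 2.53 CPM of plain totals in the E14.5 libraries, against 0.110 CPM or less at E12.5. Cga and Lhb passed as higher (adjusted p = 0.0448 and 0.0434), and Prl did not (adjusted p = 0.0559). The pituitary factor Pou1f1 had 7, 3 and 2 counts at E14.5 and 0 at E12.5. Gh itself did not pass (log2 fold change 8.46 ± 2.92, adjusted p = 0.0714) except with the spread from these stages alone (adjusted p = 0.00076) and in DESeq2 (adjusted p = 0.0143). The part of these transcripts in the results below was not tested.

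Of 18885 genes tested, 2803 (14.8%) passed the threshold of an adjusted p under 0.05. At E14.5 1187 of them (6.29% of genes tested) were higher and 1616 (8.56%) lower. These shares of all genes are the measure for every list count below. The median log2 fold change of all genes was near 0, at 0.00053. Scaling by library totals alone turned that balance to 1701 higher and 1020 lower, with a median of 0.07, so the balance of rises and falls depends on the scaling. Most changes were small: 633 genes passed with at least a 2-fold change, 333 higher and 300 lower, and beyond 4-fold falls (126) outnumbered rises (82). Among the genes called, the libraries of the stages did not overlap for 1136 that were higher and 1550 that were lower. A small p favours such separation, so these counts are not a separate result. The same count over all genes tested is not given. Of the 12 steepest falls that the naming rule chose, 7 were on the red cell list, and the rises it chose include fat handling, muscle energy and connective tissue genes. By fold or CPM the rule took only genes whose libraries did not overlap between the stages. For genes chosen that way, no overlap is a condition of choice and adds no evidence.

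**Figure D1:**
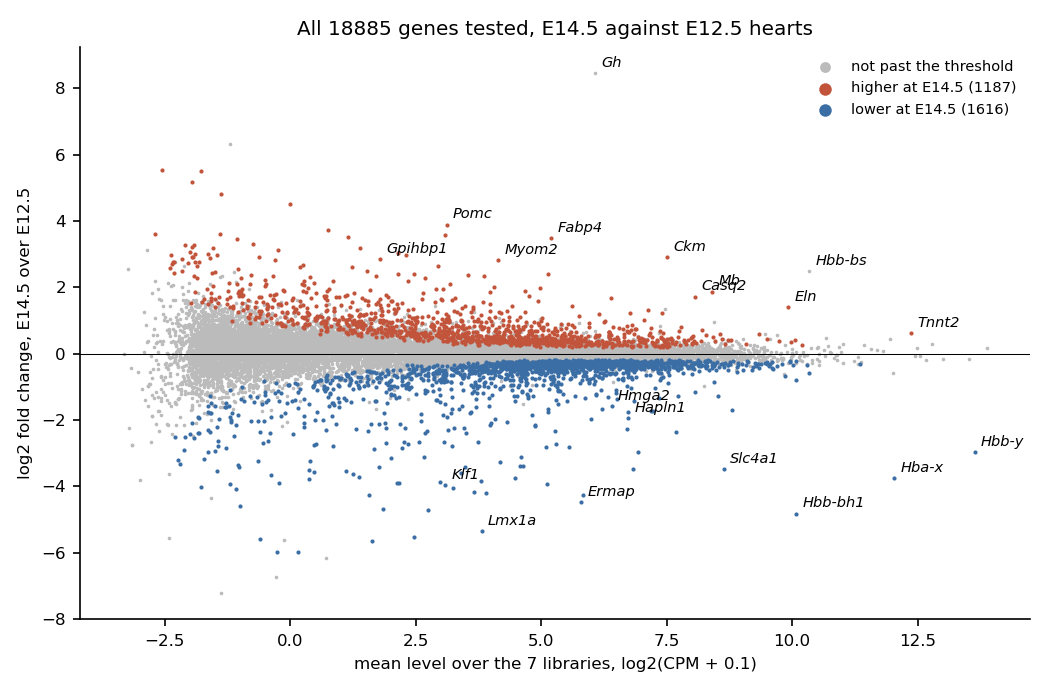
Every gene tested, with its mean level over the 7 libraries as log2(CPM + 0.1) on the horizontal axis and its log2 fold change, E14.5 over E12.5, on the vertical axis. Red points passed the threshold as higher (1187), blue points as lower (1616). The embryonic globins Hbb-y, Hba-x and Hbb-bh1 lie at the lower right, far below other genes of like level, and Gh, which did not pass, lies at the top.

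Red cell genes fell steeply and nearly all together. Of 27 tested members of the primitive erythroid list, 24 fell, none rose and 3, among them Mgst3 and Tfrc, did not pass, against 8.56% of all genes called lower. The median log2 fold change over all 27 was -2.97, against 0.00053 for all genes. In bulk tissue, fewer cells of a type and less RNA per cell cannot be told apart. The summed level of the list was 39044, 27189.6, 45236 and 14951 CPM at E12.5 and 6586, 4255 and 1469 CPM at E14.5. Every E14.5 library lay below every E12.5 library, and replicate 4 was the lowest of E12.5.

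Embryonic globins carry oxygen in primitive red cells. Hbb-y (ENSMUSG00000052187, chromosome 7 from 103851749 to 103853216 of GRCm38), the embryonic epsilon-type beta chain, stood at 27785, 17889.7, 26135 and 9680.1 CPM at E12.5 and 4524, 2642 and 612 CPM at E14.5. Hba-x, the embryonic zeta alpha chain, stood at 7438, 5052, 12332 and 2884 CPM at E12.5 and 802, 591 and 158 CPM at E14.5. Neither gene's libraries overlapped between the stages, and both fell (-2.97 ± 0.68 and -3.74 ± 0.66 on the log2 scale, adjusted p = 0.00938 and 0.00169). Hbb-bh1, a beta-like chain of the earliest red cells, fell further, from 1854 ± 1648 to 65.4 ± 41.9 CPM (log2 fold change -4.82 ± 0.86, adjusted p = 0.00183). With the spread taken from the E12.5 and E14.5 libraries alone, Hbb-y did not pass (adjusted p = 0.0817). Without E12.5 replicate 4 as well, none of the 3 did (adjusted p = 0.0943 for Hbb-y, 0.0536 for Hba-x and 0.0596 for Hbb-bh1). The list then had 19 members lower in place of 24.

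None of the 4 adult globin genes passed in either direction; without E12.5 replicate 4, Hba-a2 passed as lower (adjusted p = 0.031). Hbb-bs (ENSMUSG00000052305, chromosome 7 from 103826534 to 103828096), an adult beta chain, stood at 549, 641, 369.6 and 189 CPM at E12.5 and 3495, 2203 and 1663 CPM at E14.5. All 3 E14.5 libraries were above all 4 E12.5 libraries, yet the test did not pass (log2 fold change 2.49 ± 0.80, adjusted p = 0.0533). It did with the spread taken from these stages alone (adjusted p = 0.0311). Hba-a1, an adult alpha chain, overlapped between the stages at 6601, 4658, 5975 and 2114 CPM at E12.5 and 5167, 2748 and 1719 CPM at E14.5. Reads of Hba-a1 and Hba-a2, and of Hbb-bs and Hbb-bt, may be split or lost between near-identical copies, so the single genes are uncertain and the shares below use their sums. The share of adult chains among beta globin transcripts, per length, was 3.69, 5.49, 3.51 and 4.23% at E12.5 and 46.2, 48.9 and 74.6% at E14.5. Among alpha globin transcripts the adult share was 53.04, 53.7, 38.1 and 48.2% at E12.5 and 88.5, 85.7 and 93.4% at E14.5. Both shares were higher in every E14.5 library than in any E12.5 library (exact two-sided permutation test over 35 regroupings, p = 0.0286, the smallest this design allows; 0.0524 after adjustment over 11 isoform pairs, so no pair could pass on its own).

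Genes of the red cell membrane fell together. Kel (ENSMUSG00000029866, chromosome 6 from 41686330 to 41704339), a blood group peptidase, stood at 129.9, 78.5, 126 and 46.1 CPM at E12.5 and 7.77, 4.16 and 2.71 CPM at E14.5. Ermap (ENSMUSG00000028644, chromosome 4 from 119175457 to 119190011), a membrane protein of erythroid cells, stood at 124, 81.9, 122 and 47.3 CPM at E12.5 and 5.95, 3.80 and 2.80 CPM at E14.5. The highest E14.5 library was below the lowest of E12.5 for both (Kel log2 fold change -4.27 ± 0.42, adjusted p = 1.30e-05; Ermap log2 fold change -4.47 ± 0.34, adjusted p = 9.35e-07). Slc4a1, the band 3 anion exchanger, fell from 652 ± 231 to 58.1 ± 16.3 CPM (log2 fold change -3.49 ± 0.37, adjusted p = 1.97e-05), and Epb42, the protein 4.2 that anchors it, fell by 3.93 on the log2 scale. The Rhesus-associated glycoprotein Rhag changed by -4.21 ± 0.51. The spectrin gene Sptb fell less, by 1.44. Iron and haem genes also fell: the mitochondrial iron importer Slc25a37 (mitoferrin) changed by -2.36 ± 0.32, and Alas2, the first enzyme of haem synthesis in red cells, by -1.27 ± 0.35 with overlap between the stages. Alas2 did not pass with the spread from these stages alone (adjusted p = 0.147), nor without each of 4 libraries in turn (up to adjusted p = 0.118 without E14.5 replicate 3). The transferrin receptor Tfrc, which dividing cells of many types use, did not pass (log2 fold change 0.23 ± 0.17, adjusted p = 0.426), but passed as higher without E12.5 replicate 3 (adjusted p = 0.0426).

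Erythroid transcription factors and progenitor genes fell as well, with 1 library far above the rest. Klf1, the Kruppel-like activator of globin genes, stood at 9.62, 8.11, 31.3 and 6.76 CPM at E12.5 and 0.687, 1.12 and 0.872 CPM at E14.5. Hemgn, a nuclear protein of erythroid progenitors, stood at 9.54, 9.79, 62.8 and 9.40 CPM at E12.5 and 1.56, 1.54 and 1.71 CPM at E14.5. E12.5 replicate 3 was far above its fellow libraries in both, and the E14.5 libraries were below all of E12.5 (log2 fold change -3.96 ± 0.52, adjusted p = 0.000126; Hemgn log2 fold change -3.84 ± 0.69, adjusted p = 0.00195). With the spread from these stages alone Klf1 still passed and Hemgn did not (adjusted p = 0.0845). Gata1, the erythroid and megakaryocyte master factor, changed by -3.12 ± 0.40 (adjusted p = 7.41e-05). Outside the list, the steep falls of Slfn14, Ccdc92b, Adra2b, Slc30a10 and Lmx1a, from -3.61 to -5.36, were the other large ones by the naming rule. Lmx1a, a LIM homeobox factor better known from the brain, stood at 20.3, 17.6, 44.9 and 13.2 CPM at E12.5 and 0.972, 0.582 and 0.125 CPM at E14.5, and like Klf1 it was highest in E12.5 replicate 3.

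The promoters of the falling red cell genes were read for the 6 letters AGATAA, which GATA factors bind, a motif chosen with the results known. They were searched on both strands in the 250 bases before each RefSeq start (assembly GRCm38.p6). At least 1 copy lay before 7 of the 19 erythroid list genes that had a promoter in the table (36.8%) and before 913 of 11930 tested protein-coding genes (7.65%). The sarcomere genes held it in 10 of 46 (21.7%). The copy nearest the start is shown for the 3 members with the smallest p that hold one, in capitals, reading toward the gene, so TTATCT is a copy on the opposite strand. They lie at chr2:121037073-121037127 (minus strand) for Epb42, chr6:41704351-41704406 (minus strand) for Kel and chr17:36869386-36869441 (plus strand) for Trim10, an erythroid RING finger protein that changed by -2.81 ± 0.34. A match is a description of the letters, not a bound site.
Epb42: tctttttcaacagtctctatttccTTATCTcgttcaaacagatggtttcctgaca
Kel: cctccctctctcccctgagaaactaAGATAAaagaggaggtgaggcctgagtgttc
Trim10: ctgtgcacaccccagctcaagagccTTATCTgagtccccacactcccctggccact

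**Figure D2:**
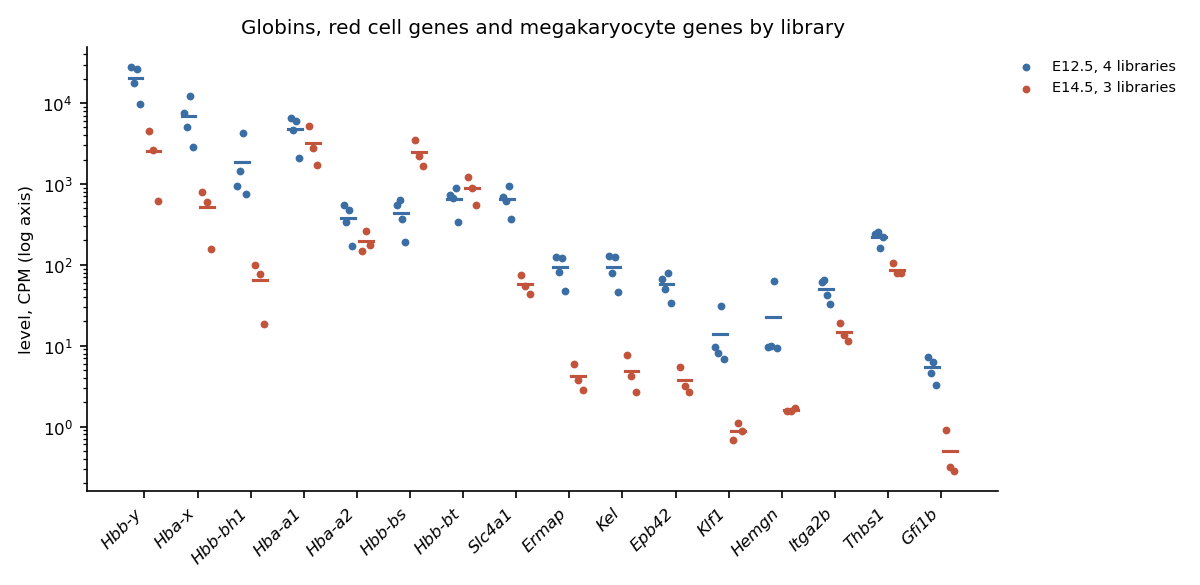
Levels of globin, red cell and megakaryocyte genes in each library, in CPM on a log axis; blue points are the 4 E12.5 libraries, red points the 3 E14.5 libraries, and bars the means. Hbb-y, Hba-x, Hbb-bh1 and the membrane genes separate by stage with E14.5 below, Hbb-bs separates the other way, and Hba-a1, Hba-a2 and Hbb-bt overlap.

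Megakaryocytes, which shed platelets, share the early part of their program with red cells. Of 21 tested members of their list, 17 fell (80.95%) and none rose (median -1.41), against 8.56% of all genes called lower. The number lower was 17 without E12.5 replicate 4, 12 with the spread from these stages alone and 11 without E14.5 replicate 3. Itga2b, the alpha chain of the platelet fibrinogen receptor, stood at 61.9, 64.4, 42.8 and 32.4 CPM at E12.5 and 19.3, 13.4 and 11.4 CPM at E14.5. Its partner Itgb3 changed by -1.14 ± 0.19, and the platelet matrix protein Thbs1 stood at 243, 252, 163 and 218 CPM at E12.5 and 105, 78.3 and 78.6 CPM at E14.5. For Itga2b and Thbs1 no E14.5 library reached the lowest of E12.5. Gfi1b, a repressor both lineages need, fell the most in the list (log2 fold change -3.41 ± 0.38, adjusted p = 6.43e-06), and the platelet glycoprotein gene Gp5 changed by -2.13 ± 0.35. Tal1 and Lyl1, helix-loop-helix factors of blood and endothelium, fell too, Tal1 from 93.6 ± 29.3 to 23.8 ± 5.71 CPM (log2 fold change -1.97 ± 0.22, adjusted p = 1.56e-05) and Lyl1 by 0.76 on the log2 scale.

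Heart muscle genes changed in selected members rather than as a whole. Of 15 tested thick filament genes 2 rose (13.3%) and 1 fell (6.67%), against 6.29% higher and 8.56% lower for all genes. These thick filament counts are too small to set apart from those shares. Of 21 thin filament genes 5 rose and 5 fell (23.8% each, as few as 2 and 3 genes with a library left out). Of 21 Z-disc genes 6 rose (28.6%) and 4 fell (19.05%). The medians of the thick filament, thin filament and Z-disc lists were 0.06, 0.14 and 0.15. The fewest thin filament rises came without E12.5 replicate 2, and 3 rose without E12.5 replicate 3 or 4 or E14.5 replicate 1 or 3; 3 fell without E12.5 replicate 1, 2 or 4 or E14.5 replicate 3. Myom2 (ENSMUSG00000031461, chromosome 8 from 15057653 to 15133541), the M-band protein of mature striated muscle, stood at 5.76, 4.05, 4.70 and 5.04 CPM at E12.5 and 32.4, 30.7 and 40.8 CPM at E14.5. That is a 7.07-fold rise with no overlap (log2 fold change 2.82 ± 0.21, adjusted p = 2.61e-07). Tnnt2 (ENSMUSG00000026414, chromosome 1 from 135836354 to 135852260), cardiac troponin T, stood at 4711, 4289, 4648 and 3600.5 CPM at E12.5 and 5837, 6901 and 7117 CPM at E14.5, and the highest E12.5 library lay below the lowest of E14.5 (log2 fold change 0.62 ± 0.11, adjusted p = 0.000563). Nrap, which links thin filaments to the cell membrane during assembly of myofibrils, and the Z-disc proteins Fhl2 and Trim63 changed by 0.77 ± 0.12, 0.63 ± 0.07 and 0.62 ± 0.08. Tnnt3 and Acta1, known from skeletal muscle, fell, though the skeletal muscle list below went both ways. Tnnt3, fast troponin T, fell by 1.52 and Acta1, skeletal alpha actin, by 0.90, from 229.9 ± 15.2 to 123 ± 12.01 CPM. The LIM protein Pdlim3 changed by -0.66 ± 0.06.

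The main myosins did not pass. Myh7, the beta heavy chain, stood at 5679, 5366, 5529 and 6119 CPM at E12.5 and 5264, 5976 and 5108 CPM at E14.5, and Myh6, the alpha heavy chain, at 2833, 2636, 2346 and 3347 CPM at E12.5 and 2236, 2752 and 1732 CPM at E14.5. Both overlapped between the stages. The share of Myh6 in the pair, per length, was 38.99, 38.6, 35.2 and 41.2% at E12.5 and 35.2, 37.1 and 30.3% at E14.5. The ventricular light chain Myl2 took 73.7, 73.1, 73.2 and 71.5% at E12.5 and 76.1, 77.6 and 79.5% at E14.5 of its pair with the atrial Myl4, with every E14.5 library above every E12.5 library (exact permutation p = 0.0286, adjusted 0.0524). For troponin I, the adult cardiac form Tnni3 took 38.2, 35.97, 36.1 and 34.4% at E12.5 and 37.4, 39.6 and 37.6% at E14.5 of its pair with the fetal Tnni1, which overlapped (exact permutation p = 0.114).

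Several genes of the sarcoplasmic reticulum, the calcium store of muscle, rose. Of 27 tested calcium handling genes 8 rose and 3 fell (none fell without E14.5 replicate 3), against 6.29% higher and 8.56% lower for all genes. Casq2 (ENSMUSG00000027861, chromosome 3 from 102086415 to 102146514), cardiac calsequestrin, the calcium buffer of the reticulum, stood at 159, 132, 115 and 134 CPM at E12.5 and 396, 430.2 and 506 CPM at E14.5. Sln (ENSMUSG00000042045, chromosome 9 from 53850164 to 53854560), sarcolipin, a small inhibitor of the calcium pump found in atria, stood at 11.5, 13.4, 14.2 and 10.3 CPM at E12.5 and 57.2, 57.1 and 80.4 CPM at E14.5. Both rose with no overlap (Casq2 log2 fold change 1.72 ± 0.19, adjusted p = 1.48e-05; Sln log2 fold change 2.39 ± 0.27, adjusted p = 2.66e-05). Trdn, triadin, which tethers calsequestrin to the release channel, and Tmem38a, a counter-ion channel of the reticulum, changed by 0.68 ± 0.14 and 0.45 ± 0.07. The pump itself, Atp2a2, and the release channel, Ryr2, did not pass (log2 fold change -0.05 ± 0.08, adjusted p = 0.724; Ryr2 log2 fold change 0.12 ± 0.21, adjusted p = 0.78). Phospholamban (Pln), the pump's other inhibitor, was higher in all 3 E14.5 libraries and missed the threshold (log2 fold change 0.57 ± 0.19, adjusted p = 0.0535), but passed with the spread from these stages alone (adjusted p = 0.000918) and in DESeq2 (adjusted p = 0.0129).

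Among 27 channel genes 10 rose (37.04%) and 3 fell (11.1%), against 6.29% higher and 8.56% lower for all genes. Kcnj8, a pore of ATP-sensitive potassium channels, stood at 4.39, 3.68, 4.31 and 4.01 CPM at E12.5 and 11.04, 12.2 and 15.5 CPM at E14.5 (log2 fold change 1.65 ± 0.14, adjusted p = 3.91e-07). It also marks pericytes, so muscle and vessel wall cannot be told apart here. Kcne1, the beta subunit of the slow delayed rectifier, changed by 0.86 ± 0.11, Kcnj2, an inward rectifier, by 0.65 ± 0.12, and Kcnip2, the subunit of the transient outward current, by 1.82 ± 0.39. The sodium channel subunit Scn4b went the other way, at 1.65, 1.78, 1.79 and 1.48 CPM at E12.5 and 0.403, 0.224 and 0.467 CPM at E14.5 (log2 fold change -2.22 ± 0.23, adjusted p = 2.56e-06). At the intercalated disc, where muscle cells join, 5 of 22 genes rose (22.7%) and none fell. The 5 were the connexins Gja1 and Gja3, the membrane proteins Bves and Popdc3 that bind cyclic AMP, and the catenin Ctnna3. Gja3 stood at 5.62, 6.24, 5.81 and 7.76 CPM at E12.5 and 16.7, 17.1 and 18.1 CPM at E14.5, and Gja1, the main connexin of working muscle, changed by 0.44 ± 0.11 (adjusted p = 0.00807).

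Genes of the oxygen and phosphate stores of muscle rose. Ckm (ENSMUSG00000030399, chromosome 7 from 19404776 to 19422841), muscle creatine kinase, stood at 56.98, 42.2, 56.3 and 35.3 CPM at E12.5 and 265, 310.1 and 506 CPM at E14.5. Mb (ENSMUSG00000018893, chromosome 15 from 77015487 to 77050670), myoglobin, stood at 158, 167, 194 and 116 CPM at E12.5 and 542, 509 and 685 CPM at E14.5. The lowest E14.5 library was above the highest of E12.5 for both (Ckm log2 fold change 2.92 ± 0.41, adjusted p = 0.000262; Mb log2 fold change 1.87 ± 0.21, adjusted p = 1.71e-05). Exons of Ckm overlap the opposite-strand gene A930016O22Rik over 15.5% of their length and those of Mb overlap Gm49540 over 27.6%, so reads of these partners may be counted with them. Of 12 tested members of the creatine and oxygen list 5 rose (3 without E14.5 replicate 3) and 1 fell, Car3, a carbonic anhydrase of slow muscle and fat, which changed by -2.23 ± 0.26. Ckm also stands in the skeletal muscle list, of whose 18 members 9 were tested and 8, among them the factors Myod1 and Myf5, were too low for a test. Of the 9 tested, 3 rose, Ckm among them, and 3 fell (median 0.68, from -0.78 to 3.32).

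Genes that bring fatty acids into the cell and store them rose together. Of 19 tested members of the uptake and storage list 13 rose and none fell (median 0.66), against 6.29% of all genes called higher. Fabp4 (ENSMUSG00000062515, chromosome 3 from 10204088 to 10208576), the fatty acid binding protein of capillary endothelium and fat cells, stood at 9.60, 7.49, 7.22 and 3.17 CPM at E12.5 and 68.4, 72.5 and 88.4 CPM at E14.5. Gpihbp1 (ENSMUSG00000022579, chromosome 15 from 75596628 to 75599481), which carries lipoprotein lipase across the capillary wall, stood at 0.850, 1.11, 0.749 and 0.9505 CPM at E12.5 and 5.0001, 6.24 and 8.63 CPM at E14.5. Fabp4 was 11.1-fold and Gpihbp1 7.22-fold higher, and neither overlapped (adjusted p = 0.000354 and 3.10e-08). Lpl, the lipase itself, did not pass (log2 fold change 0.63 ± 0.25, adjusted p = 0.104), though it did with the spread from these stages alone (adjusted p = 0.0323). Cd36, the fatty acid translocase, and Fabp3, the binding protein of heart muscle, changed by 1.004 ± 0.30 and 0.72 ± 0.12, but Cd36 did not pass when any 1 library was left out (adjusted p = 0.0513 to 0.0997). Mgll, which splits monoglycerides, and Angptl4, an inhibitor of the lipase, changed by 1.29 ± 0.19 and 0.80 ± 0.13. The lipid droplet coats Plin4 and Plin5 rose from very low levels, to at most 0.934 and 0.467 CPM.

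Beta-oxidation genes rose by less. Of 29 tested members 10 rose and none fell (median 0.24), and the number was 19 when libraries were scaled by their totals alone. Acadl, the long-chain acyl-CoA dehydrogenase, stood at 333, 291, 294 and 322 CPM at E12.5 and 483, 465 and 457 CPM at E14.5 (log2 fold change 0.60 ± 0.08, adjusted p = 7.41e-05). Acsl1, which activates long-chain fatty acids, stood at 39.7, 39.4, 35.01 and 39.9 CPM at E12.5 and 62.1, 64.9 and 72.7 CPM at E14.5 (log2 fold change 0.79 ± 0.08, adjusted p = 3.22e-06). Neither overlapped between the stages. Cpt1b, the muscle carnitine transferase, changed by 0.52 ± 0.12, but its exons overlap the same-strand gene Gm44502 over 81.4% of their length. Hadha, of the trifunctional protein, did not pass (log2 fold change 0.11 ± 0.07, adjusted p = 0.356).

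Regulators of fuel use rose too, 12 of 21 tested with 2 that fell (median 0.52). Perm1, a muscle coactivator of oxidative genes, stood at 5.40, 3.54, 4.27 and 3.88 CPM at E12.5 and 13.1, 12.46 and 13.9 CPM at E14.5 (log2 fold change 1.62 ± 0.12, adjusted p = 6.45e-08). Ppara, the nuclear receptor for fatty acids, stood at 1.15, 1.81, 2.04 and 2.56 CPM at E12.5 and 6.47, 6.02 and 6.07 CPM at E14.5, with the lowest E14.5 library above the highest of E12.5 (log2 fold change 1.71 ± 0.26, adjusted p = 0.000207). Its coactivator Ppargc1a and the pyruvate dehydrogenase kinase Pdk2 changed by 0.57 ± 0.08 and 0.60 ± 0.09. Ucp2, an uncoupling protein, fell (log2 fold change -0.72 ± 0.15, adjusted p = 0.00319).

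Few genes of the respiratory chain passed, against 14.8% of all genes. Of 59 nuclear-encoded respiratory chain genes 1 rose, Ndufa8 of complex I (0.36 ± 0.10; adjusted p = 0.169 without E14.5 replicate 3), and none fell, and of 13 mitochondrially encoded genes none passed, although all had positive estimates, 0.12 to 0.51 on the log2 scale. The summed level of the mitochondrially encoded list, in CPM of plain totals, was 33930.4, 35204, 32411 and 37982 CPM at E12.5 and 42458, 38158 and 48791 CPM at E14.5. On that scale it was higher in every E14.5 library. The TMM factors were 1.05, 1.06 and 1.04 at E14.5 and 0.965 to 1.02 at E12.5. Divided by them, replicate 2 of E14.5 lies below replicate 4 of E12.5. Of 25 citric acid cycle genes 2 rose (8%) and 1 fell (4%), against 6.29% higher and 8.56% lower for all genes. The rises were 8 under scaling by totals and 5 with at least 10 CPM in 3 libraries. Of 35 genes of glycolysis and glycogen 5 rose (14.3%) and 2 fell (5.71%). The insulin-responsive glucose transporter Slc2a4 rose (log2 fold change 0.43 ± 0.08, adjusted p = 0.000633) while the fetal transporter Slc2a1 fell (log2 fold change -0.51 ± 0.13, adjusted p = 0.00922; adjusted p = 0.0736 without E14.5 replicate 3), so that Slc2a4 took 5.83, 5.61, 5.23 and 5.06% at E12.5 and 9.24, 9.27 and 11.3% at E14.5 of the pair per length. Ldhb, the heart-type lactate dehydrogenase subunit, took 33.7, 32.5, 29.1 and 30.9% at E12.5 and 34.2, 36.1 and 41.2% at E14.5 of its pair with Ldha, and as a gene did not pass without E14.5 replicate 3 (adjusted p = 0.0636). In both pairs all E14.5 libraries lay above all of E12.5 (exact permutation p = 0.0286, adjusted 0.0524). The cytochrome oxidase subunit Cox8b took 3.28, 3.49, 4.09 and 3.85% at E12.5 and 5.91, 8.31 and 12.3% at E14.5 of its pair with Cox8a, again without overlap, and passed as a gene (log2 fold change 1.56 ± 0.34, adjusted p = 0.00657), though not with the spread from these stages alone (adjusted p = 0.0935). Cox6a2 and Cox7a1, the other muscle forms, overlapped in their shares of 19.04% and 18.9%, and 36.6% and 42.1%, at E12.5 and E14.5 (exact permutation p = 0.886 and 0.257).

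Among coronary and capillary endothelial genes, 18 of the 37 tested rose (48.65%) and 3 fell (8.11%), with 16 not called (median 0.43). Of all genes 6.29% were called higher and 8.56% lower. Besides Fabp4, Gpihbp1, Cd36 and Mgll, which the fat list shares, Apln (ENSMUSG00000037010, chromosome X from 48025146 to 48034853), the apelin peptide of sprouting coronary tips, stood at 6.99, 6.89, 6.97 and 8.45 CPM at E12.5 and 25.9, 23.1 and 30.8 CPM at E14.5. Its receptor Aplnr stood at 13.9, 13.1, 10.1 and 12.1 CPM at E12.5 and 31.6, 24.9 and 34.2 CPM at E14.5. Apelin was 3.62-fold higher and neither gene overlapped (adjusted p = 2.04e-08 and 7.55e-06). The homeobox factor Meox2 and the helix-loop-helix factor Tcf15, a pair named in capillary fat uptake, changed by 3.19 ± 0.33 and 1.96 ± 0.24, Meox2 from 0.556 ± 0.0992 to 5.11 ± 1.28 CPM. Igfbp3 changed by 1.12 ± 0.09, and Sox17, an arterial factor whose exons overlap Gm37587 over 16.8%, by 1.14 ± 0.15. Unc5b, a netrin receptor of vessel tips, did not pass (log2 fold change -0.22 ± 0.11, adjusted p = 0.185). Those that fell include the carbonic anhydrase Car4 and the chemokine scavenger Ackr3 (-1.50 ± 0.28 and -1.09 ± 0.13).

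Genes shared by all endothelium rose less: 10 of 27 tested were higher and 3 lower, Tal1, Lyl1 and the angiopoietin receptor Tek. Cldn5, the tight junction claudin of capillaries, stood at 7.16, 7.24, 7.51 and 7.29 CPM at E12.5 and 16.54, 17.1 and 24.1 CPM at E14.5 and did not overlap (log2 fold change 1.39 ± 0.20, adjusted p = 0.000103). Pecam1, the standard endothelial marker, changed by 0.20 ± 0.06 (adjusted p = 0.0306; adjusted p = 0.145 without E14.5 replicate 1 not passing without each of 3 other libraries, and adjusted p = 0.0684 with the spread from these stages alone), and Cdh5, the endothelial cadherin, did not pass (log2 fold change 0.21 ± 0.10, adjusted p = 0.193) except without E12.5 replicate 4 when the spread came from these stages alone (adjusted p = 0.0383). The summed level of the pan-endothelial list was 1982, 1868, 1908 and 2021 CPM at E12.5 and 2018, 2033 and 2140.1 CPM at E14.5, and the E14.5 range overlapped that of E12.5. Notch genes, which shape arteries, rose in 7 of 20 and fell in 2 (4 rose without E12.5 replicate 1 or 2 or E14.5 replicate 3, and none fell without the last). Nrarp, a feedback target of Notch, stood at 9.35, 9.49, 12.96 and 9.64 CPM at E12.5 and 21.1, 18.8 and 26.004 CPM at E14.5 and Heyl, another target, at 13.5, 14.1, 14.8 and 13.1 CPM at E12.5 and 26.2, 24.7 and 25.1 CPM at E14.5. Both rose without overlap (adjusted p = 9.26e-06 and 9.10e-07), though exons of Nrarp overlap Gm38287 over 79.4% of their length. Acvrl1, the endothelial receptor of the BMP family, rose from 9.19 ± 0.835 to 18.9 ± 2.12 CPM (log2 fold change 1.04 ± 0.12, adjusted p = 1.20e-05).

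Endocardial and valve genes moved mostly the other way. Of 31 tested, 15 fell (48.4%) and 5 rose (16.1%, median -0.29), against 8.56% lower and 6.29% higher for all genes. The number lower was 9 without E14.5 replicate 2. Msx2, a homeobox factor of the cushions, stood at 8.31, 7.87, 9.44 and 8.08 CPM at E12.5 and 4.12, 3.22 and 4.20 CPM at E14.5. Bmp2, a ligand that starts cushion formation, stood at 29.5, 31.1, 30.9 and 38.3 CPM at E12.5 and 17.5, 15.6 and 17.6 CPM at E14.5. Neither overlapped, and both fell (adjusted p = 2.55e-06 and 2.28e-05). Twist1, a factor of cushion mesenchyme, and Wnt9b, a ligand of the endocardium, changed by -1.21 ± 0.19 and -1.41 ± 0.28. Wif1, a secreted Wnt inhibitor, and Aplnr were among the 5 that rose, Wif1 from 2.38 ± 0.355 to 6.72 ± 0.403 CPM.

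**Figure D3:**
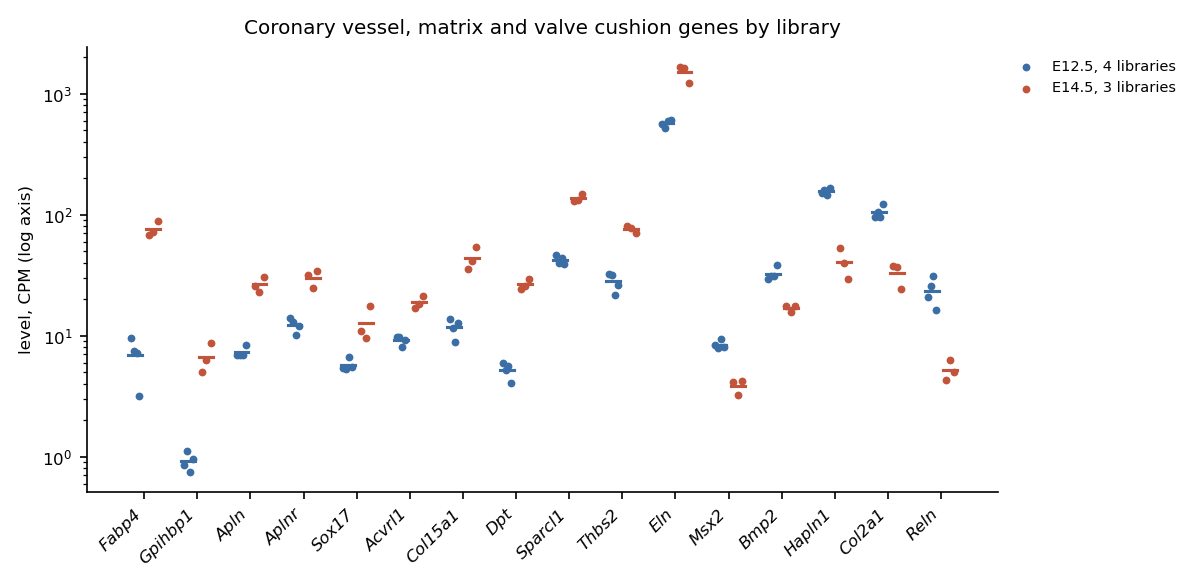
Levels of coronary vessel, connective tissue and valve cushion genes in each library, in CPM on a log axis; blue points are the 4 E12.5 libraries, red points the 3 E14.5 libraries, and bars the means. The genes from Fabp4 to Eln lie higher at E14.5 and those from Msx2 to Reln lower, in each case with no overlap between the stages.

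Cushion matrix genes fell while several connective tissue genes rose. Hapln1 (ENSMUSG00000021613, chromosome 13 from 89539796 to 89611652), the link protein that holds hyaluronan to versican in cardiac jelly, stood at 152, 162, 145 and 165 CPM at E12.5 and 53.4, 39.6 and 29.2 CPM at E14.5. Has2, which makes hyaluronan, stood at 26.1, 20.3, 17.98 and 21.8 CPM at E12.5 and 9.503, 6.87 and 4.95 CPM at E14.5. Vcan, versican itself, stood at 401, 466, 389 and 473 CPM at E12.5 and 273, 267 and 169 CPM at E14.5. All 3 fell with no overlap (adjusted p = 3.05e-06, 2.56e-05 and 0.00309). The cartilage-type collagen Col2a1, also a cushion gene, changed by -1.67 ± 0.17 and Col9a1 by -1.40 ± 0.25. In the list of 29 proteoglycan and matrix genes 9 rose and 6 fell. Sparcl1, a matrix protein of vessels, stood at 46.8, 40.1, 44.2 and 39.4 CPM at E12.5 and 129, 133 and 149 CPM at E14.5, the small proteoglycan Aspn changed by 2.36 ± 0.26, and decorin (Dcn) by 1.21 ± 0.23. Thbs2, a matricellular protein of fibroblasts, stood at 32.3, 32.03, 21.8 and 26.2 CPM at E12.5 and 80.7, 77.1 and 70.8 CPM at E14.5 (log2 fold change 1.44 ± 0.13, adjusted p = 8.17e-07), opposite to its platelet relative Thbs1.

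Fibroblast genes rose in 11 of 25 tested and fell in 4 (median 0.40); 9 rose and 1 fell without E12.5 replicate 4. Dpt, dermatopontin, stood at 5.92, 5.24, 5.61 and 4.04 CPM at E12.5 and 24.4, 25.97 and 29.5 CPM at E14.5 (log2 fold change 2.35 ± 0.31, adjusted p = 0.000129). The interstitial collagen genes Col3a1 and Col1a2 changed by 0.41 ± 0.11 and 0.58 ± 0.15, of which neither passed without E14.5 replicate 2 (adjusted p = 0.0607 and 0.0665). Col3a1 went from 927 ± 102 to 1235 ± 56.5 CPM. Of 30 collagens 8 rose and 5 fell (3 without E12.5 replicate 1 or E14.5 replicate 2 or 3). The steepest rise on the list was that of Col15a1, of basement membranes around capillaries and muscle, at 13.7, 11.5, 8.90 and 12.9 CPM at E12.5 and 35.6, 41.5 and 53.6 CPM at E14.5. Col14a1, of fibril surfaces, rose as well, at 17.001, 19.2, 12.1 and 16.7 CPM at E12.5 and 45.4, 54.4 and 47.4 CPM at E14.5. Neither overlapped (adjusted p = 6.08e-07 and 1.91e-07). All 3 tested chains of collagen VI rose, by 0.73 to 0.83 on the log2 scale. Eln (ENSMUSG00000029675, chromosome 5 from 134702593 to 134747323), elastin of the outflow vessels, stood at 564, 516, 593 and 609 CPM at E12.5 and 1657, 1642 and 1233 CPM at E14.5 (log2 fold change 1.40 ± 0.26, adjusted p = 0.00213). The latent TGF-beta binding proteins parted, Ltbp2 with 2.65 ± 0.24 and Ltbp1 with -0.70 ± 0.11. Epicardial genes, of the sheet from which many fibroblasts come, fell in 5 of 24 and rose in 1, Msln (0.86 ± 0.14); 10 fell with the spread from these stages alone, 3 without E12.5 replicate 2 or 3 or E14.5 replicate 2, and 2 without E14.5 replicate 3. Tbx18 of the epicardium changed by -0.56 ± 0.12.

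**Figure D4:**
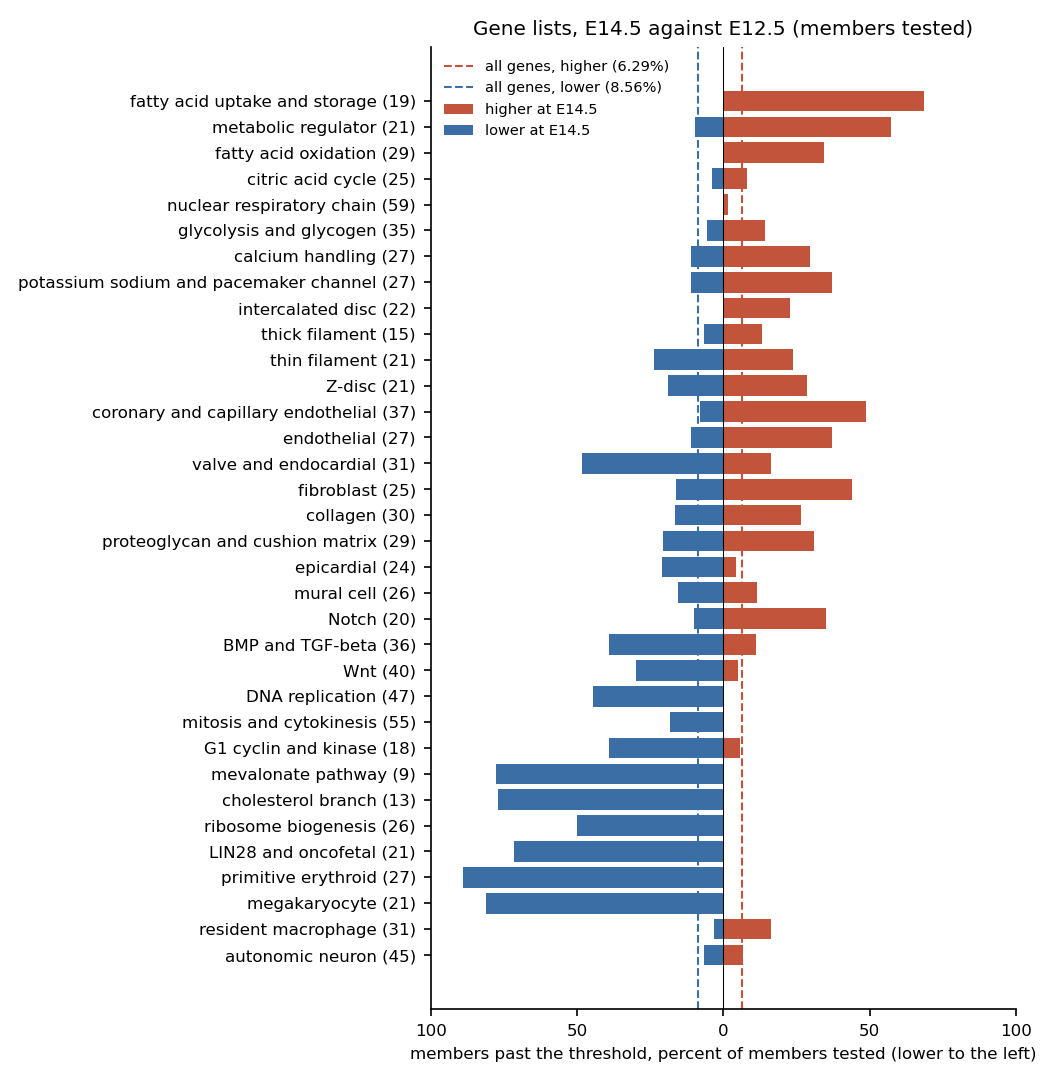
Share of each list's tested members that passed the threshold, in percent, higher at E14.5 to the right in red and lower to the left in blue; the number tested is in brackets, and dashed lines mark all genes (6.29% higher, 8.56% lower). The primitive erythroid, megakaryocyte, mevalonate, cholesterol, LIN28, replication, mitosis and ribosome lists extend only to the left, and the fatty acid, respiratory chain and intercalated disc lists only to the right.

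DNA replication genes fell by small amounts. Of 47 tested, 21 fell and none rose (median -0.26), against 8.56% of all genes called lower. The number was 11 when libraries were scaled by their totals alone and 18 without E12.5 replicate 4 (11 if the spread also came from these stages alone), with none rising in any of these. Mcm4 (ENSMUSG00000022673, chromosome 16 from 15623897 to 15637400), a subunit of the replicative helicase, stood at 117, 113, 102 and 117 CPM at E12.5 and 84.5, 88.1 and 79.8 CPM at E14.5. Lig1, the ligase of lagging strands, stood at 133, 124, 124 and 137 CPM at E12.5 and 91.9, 99.8 and 97.5 CPM at E14.5. The stages did not overlap, but the drops were -0.41 ± 0.06 and -0.43 ± 0.07 on the log2 scale (adjusted p = 0.000126 and 0.000165). All 6 helicase subunits, Mcm2 to Mcm7, fell, by 0.27 to 0.45 (Mcm7 adjusted p = 0.0586 when scaled by totals alone), while the clamp Pcna did not pass (log2 fold change -0.05 ± 0.08, adjusted p = 0.773). Ccne1, the cyclin that starts S phase, changed by -0.44 ± 0.07 and the transcription factor E2f2 by -0.75 ± 0.18 (adjusted p = 0.0514 without E14.5 replicate 3, and 0.0904 with the spread from these stages alone). E2f2 was highest in E12.5 replicate 3, as Klf1 and Hemgn were, and dividing red cell precursors use it too; the part of blood in its change was not tested.

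Mitosis genes moved less: 10 of 55 (18.2%) fell and none rose (median -0.11), against 8.56% of all genes called lower. The number lower was 3 under scaling by totals, 5 without E12.5 replicate 1 or 4, 6 without E14.5 replicate 2 and 4 without E14.5 replicate 3. Under scaling by totals 1020 of all 18885 genes were lower, a share near that of this list. Tacc3 and Tpx2, spindle proteins, and the kinase Aurka changed by -0.34 ± 0.06, -0.33 ± 0.07 and -0.27 ± 0.06. The proliferation markers Mki67 and Top2a did not pass (log2 fold change -0.32 ± 0.16, adjusted p = 0.227; Top2a log2 fold change -0.24 ± 0.10, adjusted p = 0.112), although Top2a passed as lower without E12.5 replicate 3 (adjusted p = 0.0443). Among 18 cyclin and kinase genes of the G1 phase 7 fell and 1 rose. Ccnd1 and its kinase Cdk4 changed by -0.47 ± 0.12 (adjusted p = 0.0525 without E14.5 replicate 2) and -0.32 ± 0.06. Of the inhibitors, Cdkn1c (p57), an imprinted brake on growth, stood at 1098, 1026, 1193 and 1137 CPM at E12.5 and 713, 684 and 674 CPM at E14.5 and fell (log2 fold change -0.69 ± 0.07, adjusted p = 1.97e-06), with 30.7% of its exons overlapping Gm44732. Cdkn2c (p18) stood at 22.9, 20.1, 22.8 and 21.8 CPM at E12.5 and 38.1, 36.7 and 49.8 CPM at E14.5 and rose (log2 fold change 0.92 ± 0.10, adjusted p = 3.28e-06). These brakes moved in opposite directions, each without overlap.

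Promoters of replication genes were read for the E2F-type letters TTTCCCGC, TTTGGCGC and TTTCGCGC, on both strands in the same 250-base windows. They lay before 9 of 38 replication genes with a promoter in the table (23.7%), 2 of 47 mitosis genes (4.26%) and 371 of 11930 tested protein-coding genes (3.11%). The letters TTTGAA, of the cell cycle homology region, lay before 17 of 47 mitosis genes (36.2%), 6 of 38 replication genes (15.8%) and 12.9% of all. For the MEF2-type and CArG-type letters of muscle genes the shares in sarcomere promoters were 3 of 46 each (6.52%), against 1.37% and 0.218% of all genes. Shown are the E2F-type copies nearest the start, in capitals, for the 3 members that fell with the smallest p and hold one: Mcm6 at chr1:128359720-128359777 (minus strand), Mcm5 at chr8:75109335-75109392 (plus strand) and Mcm7 at chr5:138172016-138172073 (minus strand). In Mcm5 and Mcm7 the copy is on the opposite strand.
Mcm6: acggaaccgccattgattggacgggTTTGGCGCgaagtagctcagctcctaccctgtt
Mcm5: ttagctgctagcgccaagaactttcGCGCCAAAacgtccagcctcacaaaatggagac
Mcm7: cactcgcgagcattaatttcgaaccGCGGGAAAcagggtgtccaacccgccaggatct

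The mevalonate pathway turns acetyl-CoA into isoprenoids, which become cholesterol or the anchors of prenylated proteins. Of its 9 listed enzymes 7 fell and none rose (median -0.44), with 5 lower without E14.5 replicate 3, the fewest of any 1 library left out. Acat2 (ENSMUSG00000023832, chromosome 17 from 12942890 to 12960747), the thiolase of the first step, stood at 31.7, 31.1, 29.9 and 30.4 CPM at E12.5 and 21.6, 20.6 and 18.2 CPM at E14.5. Idi1, the isomerase of isopentenyl diphosphate, stood at 25.1, 26.9, 25.8 and 28.8 CPM at E12.5 and 18.9, 20.8 and 16.8 CPM at E14.5. No E14.5 library of either reached the lowest of E12.5 (log2 fold change -0.61 ± 0.08, adjusted p = 4.99e-05; Idi1 log2 fold change -0.50 ± 0.09, adjusted p = 0.0007). Mvk and Mvd, the mevalonate kinase and decarboxylase, changed by -0.46 ± 0.11 and -0.41 ± 0.10 (Mvk adjusted p = 0.0523 without E14.5 replicate 1). Hmgcs1, the synthase before the rate-limiting step, changed by -0.36 ± 0.09 and Fdps, which makes farnesyl diphosphate, by -0.44 ± 0.12. Without E14.5 replicate 3 neither passed (adjusted p = 0.0566 and 0.0969), nor Fdps without E12.5 replicate 3 (adjusted p = 0.0561). Exons of Fdps overlap the same-strand gene Gm43738 over 26.7% of their length, and those of Hmgcs1 overlap Gm48342 over 12.1%. Pmvk, the second kinase, stood at 30.3, 28.7, 32.98 and 24.7 CPM at E12.5 and 27.2, 27.1 and 26.3 CPM at E14.5. Ggps1, which makes the geranylgeranyl anchor, stood at 32.1, 39.95, 37.03 and 38.97 CPM at E12.5 and 41.2, 40.2 and 34.2 CPM at E14.5. Both overlapped and did not pass (adjusted p = 0.568 and 0.736).

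The branch from farnesyl diphosphate to cholesterol followed, with 10 of 13 tested lower and none higher (median -0.37); 6 were lower under scaling by totals, and 6 without E12.5 replicate 4 when the spread also came from these stages alone. Msmo1, a methylsterol oxidase, stood at 38.7, 35.8, 36.5 and 37.3 CPM at E12.5 and 21.6, 24.03 and 21.6 CPM at E14.5. Cyp51 (ENSMUSG00000001467, chromosome 5 from 4081145 to 4104746), the lanosterol demethylase, stood at 64.9, 68.8, 68.4 and 71.0 CPM at E12.5 and 43.4, 45.97 and 37.9 CPM at E14.5. Both were lower in every E14.5 library (log2 fold change -0.73 ± 0.10, adjusted p = 4.93e-05; Cyp51 log2 fold change -0.69 ± 0.07, adjusted p = 3.23e-06). Fdft1, squalene synthase, and Sqle, squalene epoxidase, changed by -0.61 ± 0.07 and -0.54 ± 0.08. Exons of Fdft1 overlap Ctsb over 18.3%. Among 15 sterol regulators 2 rose and 2 fell. Abca1, which exports cholesterol, stood at 17.2, 22.4, 14.98 and 20.3 CPM at E12.5 and 36.6, 32.4 and 28.6 CPM at E14.5 and rose without overlap (log2 fold change 0.80 ± 0.15, adjusted p = 0.00105). Mylip, a ubiquitin ligase that sterols induce, rose as well (0.39 ± 0.08).

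The letters CCAAT, which NF-Y binds, lay within 250 bases before 16 of the 17 mevalonate and cholesterol genes with a promoter in the table (94.1%), on either strand. They lay before 39.9% of the 11930 tested protein-coding genes, 57.9% of replication genes and 74.5% of mitosis genes. The copy nearest the start is in capitals for the 3 falling members with the smallest p that hold one, Cyp51 at chr5:4104698-4104751 (minus strand), Msmo1 at chr8:64733604-64733658 (minus strand) and Idi1 at chr13:8885567-8885605 (plus strand), where ATTGG is a copy on the opposite strand.
Cyp51: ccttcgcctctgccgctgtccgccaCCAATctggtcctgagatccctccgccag
Msmo1: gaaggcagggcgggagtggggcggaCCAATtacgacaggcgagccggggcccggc
Idi1: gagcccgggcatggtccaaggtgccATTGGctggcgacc

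**Figure D5:**
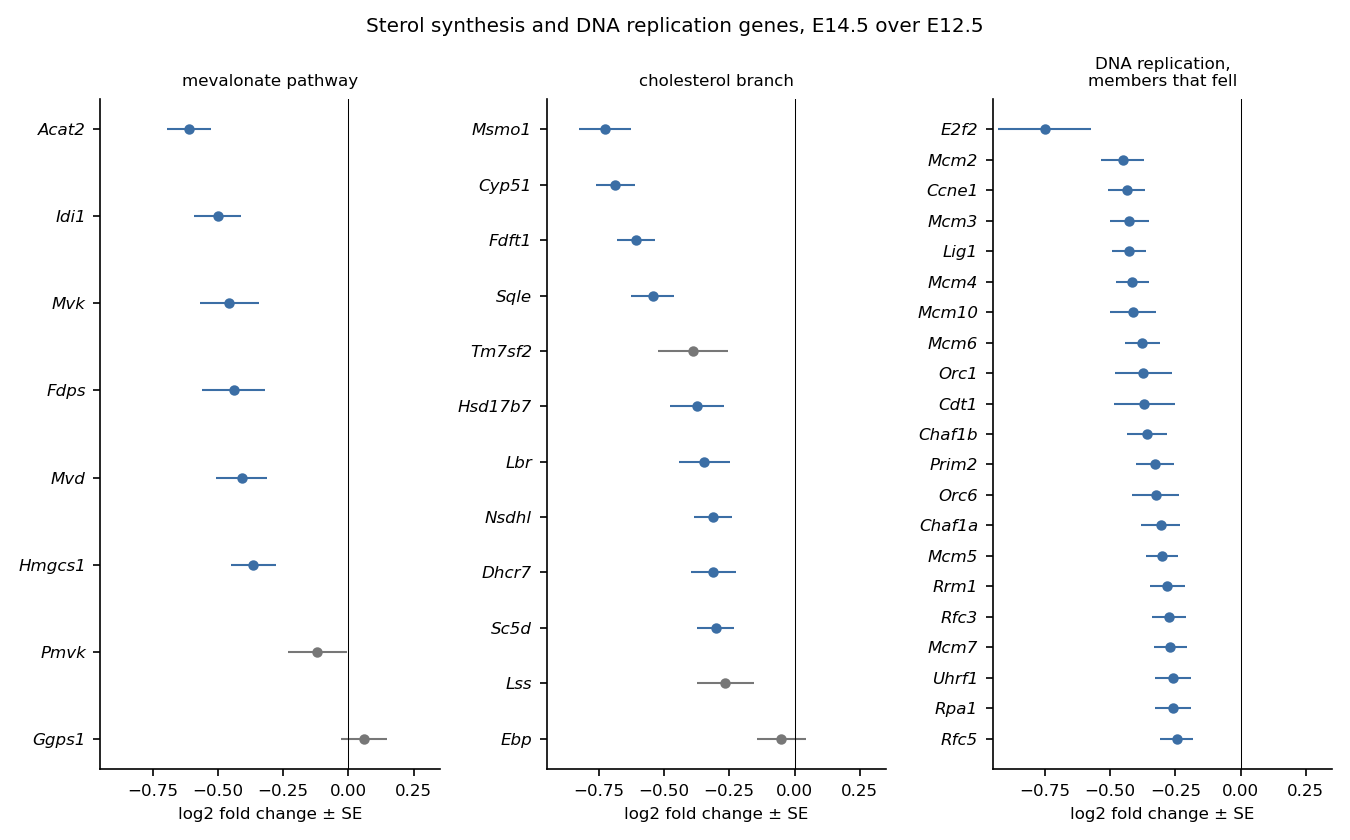
Log2 fold change ± SE, E14.5 over E12.5, of genes of the mevalonate pathway, of the cholesterol branch, and of the 21 replication genes that fell; blue passed the threshold, grey did not. Most sterol genes shown lie between -0.30 and -0.73, and Pmvk, Ggps1 and Ebp lie near 0.

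Genes of the embryonic growth program tied to the RNA-binding proteins LIN28 fell in 15 of 21 tested (71.4%) and rose in none (median -0.55). Of all genes 8.56% were called lower. Hmga2 (ENSMUSG00000056758, chromosome 10 from 120361275 to 120476469), a chromatin protein of growing tissue, stood at 121, 119.8, 112 and 119 CPM at E12.5 and 45.9, 38.7 and 34.3 CPM at E14.5. Arid3a, a DNA-binding factor, stood at 60.1, 53.6, 58.5 and 50.9 CPM at E12.5 and 22.04, 20.6 and 15.2 CPM at E14.5. Their highest E14.5 libraries were well below the lowest of E12.5 (adjusted p = 1.17e-08 and 3.10e-08). Lin28b itself, at 8.47, 9.06, 8.72 and 8.63 CPM at E12.5 and 5.59, 5.35 and 4.30 CPM at E14.5, and the mRNA-binding Igf2bp1, at 105, 132, 119 and 129.7 CPM at E12.5 and 75.1, 80.4 and 55.4 CPM at E14.5, fell too. Trim71, a target of let-7 microRNAs, changed by -2.35 ± 0.27, and the zinc finger factors Sall3 and Sall4 by -1.45 ± 0.18 and -0.996 ± 0.19. Ribosome biogenesis genes, which serve growth, fell in 13 of 26 and rose in none (median -0.23), with 7 under scaling by totals and 8 without E14.5 replicate 3, or without E12.5 replicate 4 when the spread came from these stages alone. Nolc1, of the nucleolus, changed by -0.47 ± 0.07. Of 23 tested imprinted growth genes 6 fell and 2 rose.

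Several signals of the early heart also fell. Of all genes 8.56% were called lower and 6.29% higher. In the BMP and TGF-beta list 14 of 36 fell (38.9%) and 4 rose (11.1%), with 9 lower without E14.5 replicate 3. Among those that fell were the ligands Bmp2 and Bmp4 (-0.94 ± 0.12 and -0.86 ± 0.15), the modulator Bmper (-1.02 ± 0.12), and the target Id2 (log2 fold change -0.71 ± 0.11, adjusted p = 0.000138). In the Wnt list 12 of 40 fell (30%, with 7 lower without E14.5 replicate 2). Its 2 rises (5%, near the share of all genes) were Wif1 and the receptor Lgr6. The nuclear effector Lef1 stood at 11.9, 9.81, 9.13 and 10.7 CPM at E12.5 and 5.88, 3.98 and 3.24 CPM at E14.5, and the feedback target Nkd1 changed by -0.59 ± 0.09. Lef1 did not overlap between the stages (log2 fold change -1.24 ± 0.21, adjusted p = 0.000422). Of 28 cardiac transcription factors 6 fell (21.4%), 2 rose (7.14%, near the share of all genes) and 20 did not pass. Hand1 (ENSMUSG00000037335, chromosome 11 from 57828705 to 57832818), of the outer left ventricle, stood at 39.2, 31.4, 31.9 and 40.3 CPM at E12.5 and 15.1, 11.8 and 15.8 CPM at E14.5, and Gata5, of the endocardium, at 40.4, 41.9, 47.1 and 53.9 CPM at E12.5 and 22.9, 20.2 and 23.1 CPM at E14.5. Both fell without overlap (adjusted p = 1.88e-06 and 0.000215). Tbx2 and Tbx3, repressors of the atrioventricular canal, changed by -0.62 ± 0.16 and -0.52 ± 0.13, and neither passed without E14.5 replicate 1 (adjusted p = 0.0776 and 0.0625), nor Tbx2 without E14.5 replicate 2 (adjusted p = 0.0566). Nkx2-5, Gata4, Tbx5 and Tbx20, the core factors, did not pass, with estimates of 0.26, -0.11, -0.09 and 0.08. Ccn1 and Ccn2, matricellular targets of stretch signals, changed by -0.92 ± 0.11 and -0.77 ± 0.13, and the guidance ligand Sema3c, of the outflow tract, by -1.09 ± 0.14.

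In the list of 28 guidance and neurotrophic cues of cardiac nerves 1 rose (3.57%) and 5 fell (17.9%). Of 45 autonomic neuron genes 3 rose and 3 fell (6.67% each), near the shares of all genes (6.29% higher and 8.56% lower). Of 21 Schwann and neural crest genes 3 rose (14.3%) and 2 fell (9.52%). Ddc, an enzyme of amine synthesis that muscle can express, rose (0.74 ± 0.10). Receptors of autonomic signals rose in 5 of 26 (3 without E14.5 replicate 2 or 3, 8 with DESeq2) and fell in 2. Chrm2, the muscarinic receptor of the vagal brake, changed by 0.74 ± 0.14.

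Resident macrophage genes rose in 5 of 31 tested and fell in 1. The count was 4 without E12.5 replicate 4, but 14 when the spread between replicates came from these stages alone, and 17 with both. Ctss, a lysosomal protease, was lowest in E12.5 replicate 4, at 53.1, 80.5, 52.6 and 5.97 CPM at E12.5 and 82.8, 83.4 and 59.2 CPM at E14.5. The other E12.5 libraries overlapped with E14.5. The summed list was 610.1, 659, 599 and 485 CPM at E12.5 and 904, 906 and 893 CPM at E14.5, higher in every E14.5 library. Ccr2, the receptor of blood monocytes, was low but higher in every E14.5 library, at 0.137, 0.460, 0.318 and 0.370 CPM at E12.5 and 1.80, 1.34 and 2.87 CPM at E14.5 (log2 fold change 2.62 ± 0.36, adjusted p = 8.16e-05), and Apoe changed by 0.49 ± 0.11. The activated macrophage list had 0 of 8 members past the threshold in edgeR's test and also in DESeq2's, with 0 at an unadjusted p under 0.05. Heat shock and early response genes fell in 7 of 30 and rose in 1 (4 fell without E14.5 replicate 1 or 2 and 3 without E14.5 replicate 3). The stress pseudokinase Trib3 stood at 33.3, 21.9, 29.3 and 14.3 CPM at E12.5 and 7.84, 6.46 and 4.36 CPM at E14.5, and the abundant chaperones Hsp90ab1 and Hspa8 changed by -0.32 ± 0.07 and -0.34 ± 0.08 (Hspa8 adjusted p = 0.0521 without E14.5 replicate 2, and Hsp90ab1 adjusted p = 0.0585 without E12.5 replicate 4 when the spread came from these stages alone). Hypoxia response genes rose in 6 of 23 and fell in 1, with Ndrg1 at 1.25 ± 0.18.

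The liver list summed to 12.9, 14.3, 12.9 and 10.3 CPM at E12.5 and 16.3, 15.8 and 15.9 CPM at E14.5, and the thymus and lymphoid list to 14.8, 15.7, 14.2 and 9.64 CPM at E12.5 and 16.8, 20.5 and 19.3 CPM at E14.5. The lung and pharyngeal list summed to 188, 164, 180.3 and 163 CPM at E12.5 and 127, 123 and 113 CPM at E14.5, lower in every E14.5 library. Of its 17 genes 12 were tested, 2 fell, among them Id2, which heart cells also express, and none rose. Pomc, a pituitary hormone precursor, was the largest rise under the naming rule, at 1.32, 1.14, 1.43 and 1.06 CPM at E12.5 and 4.31, 37.2 and 13.5 CPM at E14.5 (log2 fold change 3.89 ± 0.97, adjusted p = 0.0155), and it did not pass without E14.5 replicate 2 (adjusted p = 0.0841), in limma-voom (adjusted p = 0.0585), with a replicate block (adjusted p = 0.0541), or without E12.5 replicate 4 when the spread came from these stages alone (adjusted p = 0.0917). Among the E14.5 libraries it was highest where Gh was highest. Ptgds, a prostaglandin synthase, followed with 2.71, 1.57, 1.20 and 0.449 CPM at E12.5 and 11.9, 15.3 and 25.3 CPM at E14.5 (log2 fold change 3.56 ± 0.57, adjusted p = 0.000773). The other rises named by fold were Fmo2, a flavin monooxygenase, Depp1, a target of FOXO factors, and Asb11, a ubiquitin ligase adaptor of muscle, at 2.40 ± 0.25, 2.27 ± 0.24 and 2.11 ± 0.26. By difference in CPM the largest rises also held Hspb7, a small heat shock protein of muscle (0.33 ± 0.06), and the largest falls Pabpc1, Nudt4 and Gpx1 (-0.59 ± 0.10, -1.70 ± 0.19 and -1.27 ± 0.24), of which Nudt4 and Gpx1 were lowest at E12.5 in replicate 4, as the summed red cell list was. Gpx1 did not pass with the spread from these stages alone (adjusted p = 0.067).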

How the data were processed

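Total RNA of mouse hearts was sequenced, and the authors deposited raw counts per Ensembl gene, 1 table per library, not pooled. Trimmomatic 0.36, the aligner STAR 2.5.2b, and featureCounts of Subread 1.5.2 are listed, per the submitters' processing notes, with the build GRCm38 (mm10). Gene models and strand setting are not stated there, so overlapping genes may share or lose reads. Of 49315 identifiers 49056 matched GENCODE M21 and took their symbols and positions from it; the others hold at most 0.0160% of the counts of these 7 libraries, were left out of the list counts, and stayed in the totals and the test.

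Stages were taken from the labels. Counts were fitted with edgeR 4.0.16 in R 4.3.3 (robust quasi-likelihood test, TMM scaling, filterByExpr by stage, stage as the only term) over all 18 libraries, which share 1 estimate of the spread, and E14.5 was contrasted with E12.5 with Benjamini-Hochberg adjustment over 18885 genes at a threshold of 0.05. The script was tested on simulated data. Levels are CPM after TMM scaling, and summed levels of lists are CPM of plain totals. Isoform shares used CPM per exon length and an exact two-sided permutation test, adjusted over 11 pairs. Lists are described by counts and medians, with no test. Members and lists were chosen with earlier results of these data known. Genes were named by a rule (threshold passed, at least 10 CPM, no overlap between stages; the 12 largest changes each way by fold and 8 by CPM, and the 3 members of each list with the smallest p), and other named genes were chosen after their values were seen. Members that failed the filter on low counts were not tested and are in no count. Some genes are not reported here. Promoters are from RefSeq (GRCm38.p6).

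Within a stage all 9 pairs of libraries differed by more than counting noise (chi-square over degrees of freedom 21.0 to 79.8), so none was counted as a duplicate. The results were recomputed with DESeq2 1.42.0, with limma-voom (limma 3.58.1), with RLE size factors, with scaling by totals alone, without the filter, with a filter of at least 10 CPM in 3 libraries, after thinning to the smallest total, without mitochondrial and globin genes, with the spread from the E12.5 and E14.5 libraries alone, with the replicate number as a block, and without each library in turn.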

Additional observations from a re-analysis of the deposited data

Results flagged for a closer look

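At E12.5, the 4 libraries were compared for 1 library far from the other 3, which chance gives in about 1 in 20 groups. The 3 libraries of E14.5 are too few for this. The comparison was made for 213 named genes, 11 isoform shares and the summed lists. At that rate chance alone gives a number of flags, so no single one below is a result. E12.5 replicate 3 was the highest for the red cell genes Klf1 (31.3 CPM, others 6.76 to 9.62), Hemgn (62.8 CPM, others 9.40 to 9.79) and Sptb (242 CPM, others 118 to 137). It was also the highest for Sox17 (6.70 CPM, others 5.33 to 5.52), Nrarp (12.96 CPM, others 9.35 to 9.64), Ldha (1985 CPM, others 1569 to 1610.1) and Cox8b (10.8 CPM, others 6.55 to 6.97), and for the sum of the nuclear-encoded respiratory chain list (19311 CPM, others 17384 to 17434). It was the lowest for Acsl1 (35.01 CPM, others 39.4 to 39.9). E12.5 replicate 4 was the highest for Apln (8.45 CPM, others 6.89 to 6.99), Cdh5 (232 CPM, others 190.3 to 193) and Cpt1b (50.8 CPM, others 39.7 to 40.1), and the lowest for Dcn (62.1 CPM, others 72.2 to 73.4). E12.5 replicate 2 was the highest for Plin4 (0.324 CPM, others 0.132 to 0.165), and replicate 1 the lowest for the sum of the imprinted growth list (26602 CPM, others 28148 to 28248). The list sums are CPM of plain totals and were not compared after TMM scaling. The TMM factors of the E12.5 libraries run from 0.965 to 1.02, so the gap in the imprinted sum depends on the scaling. Outside the comparisons, growth hormone (Gh) reached 218 CPM of plain totals in E14.5 replicate 2, against 0 to 0.679 CPM in the E12.5 libraries.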

How the results depend on the processing

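The 2803 genes called were 2805 with RLE size factors and 3383 with DESeq2. With 1 library left out they were 1771 to 2585, with 758 to 1036 higher and 1013 to 1549 lower; the fewest came without E14.5 replicate 3 (1771, of which 758 higher and 1013 lower), and without E14.5 replicate 2 1056 were lower. Scaling by library totals only gave 1020 lower (62.5% of calls higher, against 42.4%). The cause of these moves was not tested, beyond the fewer libraries in the fit. With the replicate number as a block 2415 were called, 1039 higher and 1376 lower. Same-numbered libraries correlated at 0.0761, 0.108 and 0.0264, so the labels' numbers were not taken to pair them, although each correlated best with its own number. Of 177 genes called and named, 152 were called in every alternative that tested them and none reversed. Some named genes were not tested with the 10 CPM filter or without mitochondrial and globin genes. Among genes and shares not called, estimates changed sign with a library left out. The ranges over the 7 such fits were -0.1133 to 0.3641 for Mgst3 (below 0 without E12.5 replicates 1, 2 and 4, at -0.0119, -0.0136 and -0.1133, and without E14.5 replicate 3, at -0.0710), -0.0210 to 0.2602 for Ryr2 and -0.0034 to 0.1365 for Ggps1 (lowest without E12.5 replicate 1), -0.0063 to 0.1438 for Ldha and -0.1236 to 0.0032 for Pcna (sign changed without E14.5 replicate 1), and -0.0186 to 0.3313 for Cox8a (lowest without E14.5 replicate 3). The difference in the Cox6a2 share ran from -0.7112 to 0.4361 percentage points, above 0 without E12.5 replicates 1 and 4 (0.3951) and E14.5 replicate 3 (0.0584). Without E12.5 replicate 4 and the other stages, Mgst3 was at -0.1110 and Atp2a2 at 0.0021. Under library totals Pcna was at 0.0285, Ebp at 0.0259, Atp2a2 at 0.0196 and Myh7 at 0.0165. With at least 10 CPM in 3 libraries 0 Schwann and neural crest genes were higher. List counts of 5 or fewer moved by more than 1.5 times in many of these settings, resident macrophage rises among them (11 with limma-voom). Fatty acid oxidation rises were 16 and megakaryocyte falls 7 with at least 10 CPM in 3 libraries. Depth limits levels under 0.0976 CPM.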
